A study of Mus musculus with 9 samples.

Results

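The 5 abundant non-coding RNAs described here are Rn7sk, Rpph1, Rmrp, Malat1 and Neat1, chosen by name as transcripts of RNA polymerase III or nuclear long non-coding RNAs, and found as 5 of the 49585 rows of the count table. They were followed across 9 mouse breast adenocarcinomas that arose spontaneously and were profiled by strand-specific sequencing of total RNA. All tumours, controls included, carried Rosa26LSL CAS9-P2A-EGFP/+ and K14-Cre together with Trp53wm-R172H/fl. Cre is driven by the keratin 14 promoter of basal epithelium and switches on Cas9 with EGFP, and the labels neither spell out wm nor say which cells carry R172H. Tumours of both groups received adeno-associated virus (AAV) on days 0, 3 and 8. There were 6 tumours treated with the vector labelled AAV-delta-mut-p53 and 3 treated with AAV-Control. Whole tumours were collected when the animals met euthanasia criteria, and the labels give neither ages nor the day of collection. The titles of AAV-delta-mut-p53 4 and 5 share a number, and the labels do not say whether they are tumours of 1 animal. Nothing else in the labels says which tumours come from separate animals, so p-values measure the spread between these samples.

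Rn7sk encodes 7SK RNA, the scaffold on which HEXIM proteins hold the elongation kinase P-TEFb inactive. Rpph1 encodes the catalytic RNA of RNase P, which cuts the leader off precursor tRNAs, and Rmrp encodes the related RNA of RNase MRP, which cuts precursor ribosomal RNA. These 3 RNAs are made by RNA polymerase III from promoters that lie upstream of the gene. Malat1 is a long RNA of nuclear speckles, where splicing factors gather, and Neat1 is the scaffold of paraspeckles, nuclear bodies that hold proteins such as NONO and SFPQ. Both long RNAs are made by RNA polymerase II, and RNase P, the enzyme that contains Rpph1 RNA, cuts off a tRNA-like piece to form the 3′ end of Malat1 and of the long form of Neat1.

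Positions are on GRCm38 and all 5 genes lie on the minus strand. In the table they are ENSMUSG00000065037.1 (Rn7sk), ENSMUSG00000092837.1 (Rpph1), ENSMUSG00000088088.1 (Rmrp), ENSMUSG00000092341.2 (Malat1) and ENSMUSG00000092274.2 (Neat1). The first 120 bases of the RNA of Rn7sk (gene at chr9:78175303-78175633) are shown with their GATC letters in capitals, since GAUC in the 5′ hairpin of human 7SK RNA is known as the contact of HEXIM. GATC occurred 3 times in the whole RNA of 331 bases, at positions 13, 42 and 64 from the 5′ end, and reads the same on both strands. At least 3 GATC occurred in 3.35% of 32851 RefSeq promoter windows of mouse genes. These windows are promoter DNA, so the share does not show how often an RNA of 331 bases holds 3. Rpph1 (chr14:50807449-50807767) is shown by its first 300 bases with the 233 bases that GENCODE also places in exons of Ccnb1ip1 on the same strand in capitals. Rmrp (chr4:43492788-43493058) is shown with the 124 bases that lie antisense to exons of Ccdc107 in capitals. These shared bases are where reads of 2 genes could be assigned to either one.
Rn7sk: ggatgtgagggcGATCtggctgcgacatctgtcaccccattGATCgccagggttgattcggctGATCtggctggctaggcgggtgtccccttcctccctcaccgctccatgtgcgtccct
Rpph1: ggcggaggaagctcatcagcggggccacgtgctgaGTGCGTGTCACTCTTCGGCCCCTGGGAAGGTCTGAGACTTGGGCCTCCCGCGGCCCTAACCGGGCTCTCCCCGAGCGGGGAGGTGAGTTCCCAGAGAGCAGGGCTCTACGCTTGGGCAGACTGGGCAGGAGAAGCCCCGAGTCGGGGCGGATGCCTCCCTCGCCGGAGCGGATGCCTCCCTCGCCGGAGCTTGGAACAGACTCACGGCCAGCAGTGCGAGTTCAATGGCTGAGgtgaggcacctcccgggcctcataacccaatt
Rmrp: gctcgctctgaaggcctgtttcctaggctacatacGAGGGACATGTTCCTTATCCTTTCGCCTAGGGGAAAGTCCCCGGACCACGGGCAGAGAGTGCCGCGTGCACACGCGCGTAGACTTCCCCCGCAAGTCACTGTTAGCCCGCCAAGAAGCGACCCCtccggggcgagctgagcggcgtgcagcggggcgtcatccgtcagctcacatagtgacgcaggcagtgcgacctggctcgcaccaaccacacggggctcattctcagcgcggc

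The ends of Malat1 and Neat1 are shown because RNase P acts there on both. Malat1 lies at chr19:5795690-5802672 and Neat1 at chr19:5824708-5845478. The Malat1 line covers chr19:5795925-5796080, within the annotated RNA of 6983 bases. The Neat1 line covers chr19:5824652-5824807, which is the last 100 bases of the long Neat1 RNA followed by the 56 bases annotated as the small RNA gene Gm27702. Capitals mark stretches of at least 8 bases found in both lines. There were 5 such stretches, of 13, 16, 12, 8 and 9 bases, in the same order in both RNAs. Uridine-rich and adenosine-rich stretches before the cut are known in both RNAs to fold into a triple helix that protects the 3′ end. The tRNA-like piece Gm27702 itself held 5 reads over the 6 AAV-delta-mut-p53 tumours and 0 over the 3 AAV-Control tumours.
Malat1: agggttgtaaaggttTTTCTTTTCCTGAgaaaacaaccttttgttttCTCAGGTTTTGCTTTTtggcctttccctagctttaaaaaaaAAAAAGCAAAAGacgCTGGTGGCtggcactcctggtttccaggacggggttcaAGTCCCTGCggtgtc
Neat1: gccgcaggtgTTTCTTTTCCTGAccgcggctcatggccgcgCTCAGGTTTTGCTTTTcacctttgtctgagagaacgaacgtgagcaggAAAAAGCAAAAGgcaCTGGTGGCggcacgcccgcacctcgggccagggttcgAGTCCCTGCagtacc

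The libraries held between 18581545 and 30953250 counts, and all 3 AAV-Control libraries were deeper than each AAV-delta-mut-p53 library. Trp53 RNA, the gene that the treatment label names, ran from 13.1 to 41.5 CPM (counts per 1e+06 counts of the library, with the scaling factors of edgeR) with a median of 38.4 in AAV-delta-mut-p53 tumours, against 48.6, 39.3 and 42.3 CPM in AAV-Control tumours, and did not pass the test (log2 fold change -0.42, SE 0.37, FDR, the p adjusted over all tested genes, 0.780 by edgeR). AAV-delta-mut-p53 2 stood apart by its tissue make-up, with 46264 CPM summed over 15 skeletal muscle genes, while the others of its group held 50.4 to 471 CPM and the AAV-Control tumours 64.0 to 190 CPM. Its 8 epithelial keratin and adhesion genes summed to 229 CPM, the lowest of the 9 tumours, against 1378 to 5166 CPM in the rest of its group and 1468 to 2847 CPM in AAV-Control tumours. All 8 epithelial markers and all 15 muscle markers were detected in the series, and none was at 0 in every tumour.

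Together the 5 RNAs took 3.57% to 10.5% of all counts in AAV-delta-mut-p53 libraries and 8.21%, 10.9% and 5.29% in the AAV-Control libraries. Rn7sk and Rpph1 made up most of this. Rn7sk was the most abundant row of the table in all 3 AAV-Control tumours and ranked between 1 and 3 in AAV-delta-mut-p53 tumours. Malat1 ranked between 4 and 12, Rpph1 between 2 and 28, Neat1 between 24 and 982 and Rmrp between 833 and 6100 over the 9 tumours. The 5 RNAs thus covered very different levels.

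**Figure D1:**
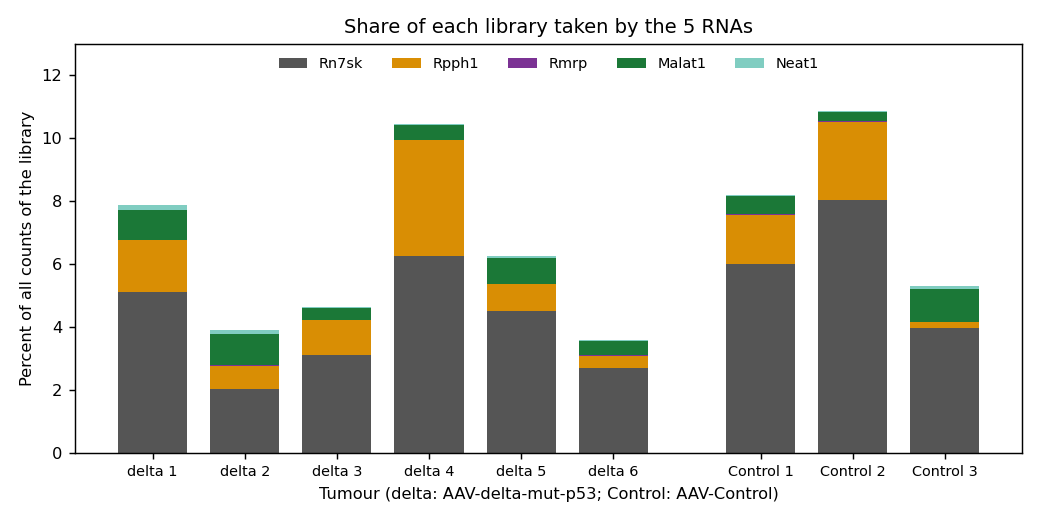
Percent of all counts of a library (vertical axis) taken by each of the 5 RNAs, stacked, 1 bar per tumour. AAV-delta-mut-p53 4 and AAV-Control 2 have the tallest bars, at 10.5% and 10.9%, and Rn7sk and Rpph1 fill most of every bar.

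Per kilobase of exon, the order was Rn7sk, Rpph1, Malat1, Rmrp and Neat1, with means over the 9 tumours of 139999, 44181, 948, 299.9 and 33.7 CPM per kilobase, scaled to library totals alone. Rn7sk ran from 61668 to 189007 CPM per kilobase in AAV-delta-mut-p53 tumours and from 119829 to 242736 in AAV-Control tumours, and Rpph1 from 12452 to 115536 with AAV-delta-mut-p53 and from 5712 to 78181 with AAV-Control. The ranges of Rn7sk and Rpph1 overlapped in AAV-delta-mut-p53 tumours and did not in AAV-Control tumours. Within each tumour Rn7sk was higher than Rpph1. The ratio of their counts, over genes of 331 and 319 bases, was 1.70 to 6.78 in AAV-delta-mut-p53 tumours and 3.8, 3.22 and 21.8 in AAV-Control tumours. Malat1 per kilobase ran from 543 to 1439 in AAV-delta-mut-p53 tumours and from 438 to 1496 in AAV-Control tumours. Rmrp ran from 117 to 671 with AAV-delta-mut-p53, where it overlapped Malat1, and from 144 to 274 with AAV-Control, where it did not. Neat1 lay lowest, at 14.5 to 78.0 in AAV-delta-mut-p53 tumours and 8.61 to 45.2 in AAV-Control tumours. Its long form of 20771 bases and its short form share their 5′ part, and counts per gene do not separate them.

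The comparison of the 2 groups asked whether levels of these RNAs differed between AAV-delta-mut-p53 and AAV-Control tumours. None of the 5 RNAs passed edgeR's quasi-likelihood test (0 of 5 at an FDR of 0.05), and 0% of the 19606 tested genes did. In counts simulated for this design, edgeR called 0 of 48 genes with a true log2 change of 1. A missing call therefore does not show equal levels. At an unadjusted p under 0.05 there were 0 of the 5 RNAs and 7.07% of all tested genes. DESeq2 called 0 of the 5 and 0.582% of the 18045 genes it tested. The groups overlapped for each of the 5 RNAs, while they did not overlap for 3.06% of all genes. In bulk tissue, fewer cells of a type and less RNA per cell cannot be told apart.

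**Figure D2:**
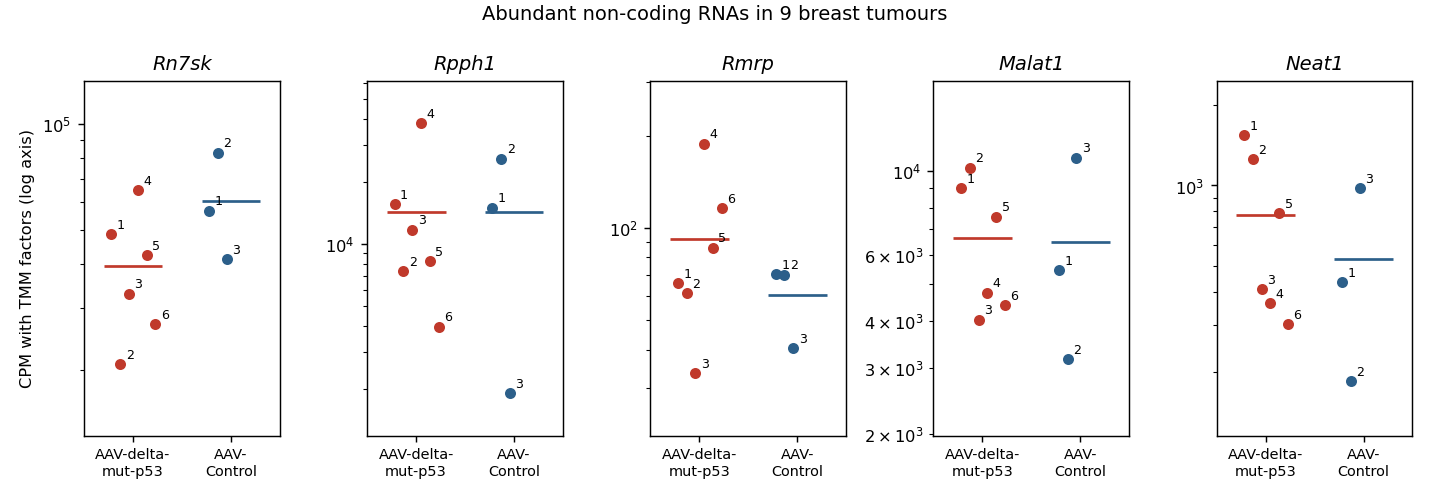
CPM with trimmed mean of M-values (TMM) factors on log axes (vertical) for the 5 RNAs, with 1 point per tumour, the tumour's number beside it and a line at the group mean. The 2 groups overlap in every panel, and Rpph1 spans the widest range, from 1897 to 38221 CPM.

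Rn7sk, the scaffold RNA of the P-TEFb inhibitor complex, held 48627, 20758, 32911, 64879, 42364 and 26963 CPM in AAV-delta-mut-p53 tumours 1 to 6 and 56792, 82949 and 41292 CPM in AAV-Control tumours 1 to 3. AAV-Control 2 was the highest of the 9 and AAV-delta-mut-p53 2, the muscle-rich sample, the lowest. The group means were 39417 ± 16046 CPM (SD, n = 6) in tumours given AAV-delta-mut-p53 and 60344 ± 21054 CPM (SD, n = 3) in AAV-Control tumours. The log2 fold change was -0.61 (SE 0.50, 95% confidence interval -1.72 to 0.49), and the FDR was 0.758 by edgeR. AAV-delta-mut-p53 2, 3 and 6 lay below every AAV-Control tumour and the other 3 of their group within the control range. Without AAV-Control 2 the value was -0.31.

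Rpph1, the RNA of RNase P, held 15575, 7400, 11698, 38221, 8258 and 3977 CPM in AAV-delta-mut-p53 tumours and 14952, 25748 and 1897 CPM in AAV-Control tumours. The highest value came from AAV-delta-mut-p53 4 and the lowest from AAV-Control 3, and they differed 20.2-fold. The group means were nearly equal, at 14188 ± 12420 CPM (SD, n = 6) in tumours given AAV-delta-mut-p53 and 14199 ± 11943 CPM (SD, n = 3) in AAV-Control tumours. The estimate was -0.00 on the log2 scale with a wide interval (SE 0.83, 95% confidence interval -1.84 to 1.84; unadjusted p = 0.999 by edgeR), which leaves a large difference in either direction inside it. Without AAV-delta-mut-p53 4 the log2 fold change was -0.60, and without AAV-Control 2 it was 0.75.

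Rmrp, the RNA of RNase MRP, took a far smaller share of the counts than its relative Rpph1, which is of similar length. It held 66.0, 61.1, 33.5, 188, 86.1 and 116 CPM in AAV-delta-mut-p53 tumours and 70.4, 70.4 and 40.5 CPM in AAV-Control tumours. AAV-delta-mut-p53 4 and 6 were above the other tumours, and AAV-delta-mut-p53 3 was below all of them. The means were 91.9 ± 54.7 CPM (SD, n = 6) in tumours given AAV-delta-mut-p53 and 60.4 ± 17.3 CPM (SD, n = 3) in AAV-Control tumours, with a log2 fold change of 0.60 (SE 0.49, 95% confidence interval -0.48 to 1.69; FDR = 0.759 by edgeR). Without AAV-delta-mut-p53 4 it was 0.27. The ratio of Rpph1 to Rmrp counts ran from 34.3 to 349 in AAV-delta-mut-p53 tumours and was 212, 366 and 46.9 in AAV-Control tumours.

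Malat1, the speckle RNA, held 9025, 10222, 4019, 4743, 7559 and 4401 CPM in AAV-delta-mut-p53 tumours and 5459, 3159 and 10874 CPM in AAV-Control tumours. AAV-Control 3 was the highest tumour and AAV-Control 2 the lowest, so the control group alone spanned the whole range. Means were 6662 ± 2640 CPM (SD, n = 6) in tumours given AAV-delta-mut-p53 and 6497 ± 3961 CPM (SD, n = 3) in AAV-Control tumours, with a log2 fold change of 0.04 (SE 0.50, 95% confidence interval -1.06 to 1.13; FDR = 0.988 by edgeR). Leaving out AAV-Control 3 gave 0.62, and leaving out AAV-Control 2 gave -0.28.

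Neat1, the paraspeckle scaffold, held 1539, 1256, 409, 363, 787 and 302 CPM in AAV-delta-mut-p53 tumours and 434, 185 and 978 CPM in AAV-Control tumours. AAV-delta-mut-p53 1 and 2 were above every AAV-Control tumour, and AAV-Control 2 was the lowest of the 9. Means were 776 ± 518 CPM (SD, n = 6) in tumours given AAV-delta-mut-p53 and 532 ± 406 CPM (SD, n = 3) in AAV-Control tumours. The log2 fold change of 0.54 (SE 0.66, 95% confidence interval -0.91 to 2.0; FDR = 0.841 by edgeR) became 1.32 when AAV-Control 3 was left out and 0.15 when AAV-Control 2 was left out.

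**Figure D3:**
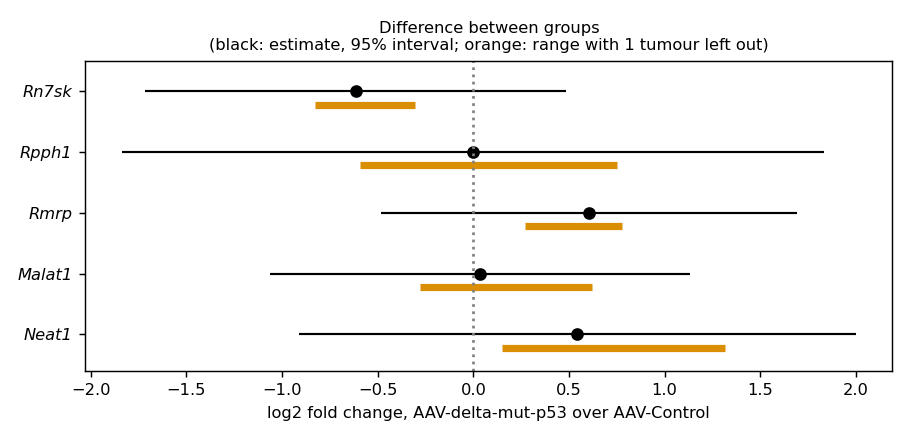
Log2 fold change of AAV-delta-mut-p53 over AAV-Control tumours (horizontal axis) for the 5 RNAs, with black points for the estimates, black lines for 95% confidence intervals and orange bars for the range of estimates with 1 tumour left out. Every black line crosses 0, and the orange bars of Rpph1 and Malat1 cross it as well.

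The 5 RNAs differed in how much they varied within a group. The pooled within-group SD on the log2 scale was 1.42 for Rpph1, 1.05 for Neat1, 0.76 for Rmrp, 0.68 for Malat1 and 0.57 for Rn7sk, where the median was 0.52 over 4644 genes averaging 50 CPM or more. The SD of Rpph1 was higher than that of 94.1% of those genes, and that of Rn7sk, the most abundant RNA, than that of 59.0%. The tumours with the shared title number also differed. AAV-delta-mut-p53 4 exceeded AAV-delta-mut-p53 5 by 2.21 on the log2 scale for Rpph1, by 1.13 for Rmrp and by 0.61 for Rn7sk, and was below it by a log2 difference of -0.67 for Malat1 and -1.12 for Neat1. The median size of the difference between these tumours was 0.44 over the same genes.

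Malat1 and Neat1 varied together over the 9 tumours. Pearson's r of their log2 CPM was 0.948 (exact permutation p = 3.9e-04 over all pairings, adjusted p = 0.0039 over the 10 pairs of the 5 RNAs), and Spearman's rho was 0.883 (exact permutation p = 0.0031, adjusted p = 0.0308). Without AAV-delta-mut-p53 2 and AAV-Control 3, the tumours farthest from the median of Malat1, r was 0.959. Among 12315 genes averaging 5 CPM or more and ranked by their r with Malat1, Neat1 was in place 2, where the median r of all genes was -0.09, and Malat1 was in place 3 among the genes ranked by Neat1. The adjusted p was 0.0605 without AAV-Control 2, the tumour lowest in both, with r = 0.924. The ratio of Malat1 to Neat1 counts, not corrected for length, was 5.86 to 14.6 in AAV-delta-mut-p53 tumours and 12.6, 17.1 and 11.1 in AAV-Control tumours.

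**Figure D4:**
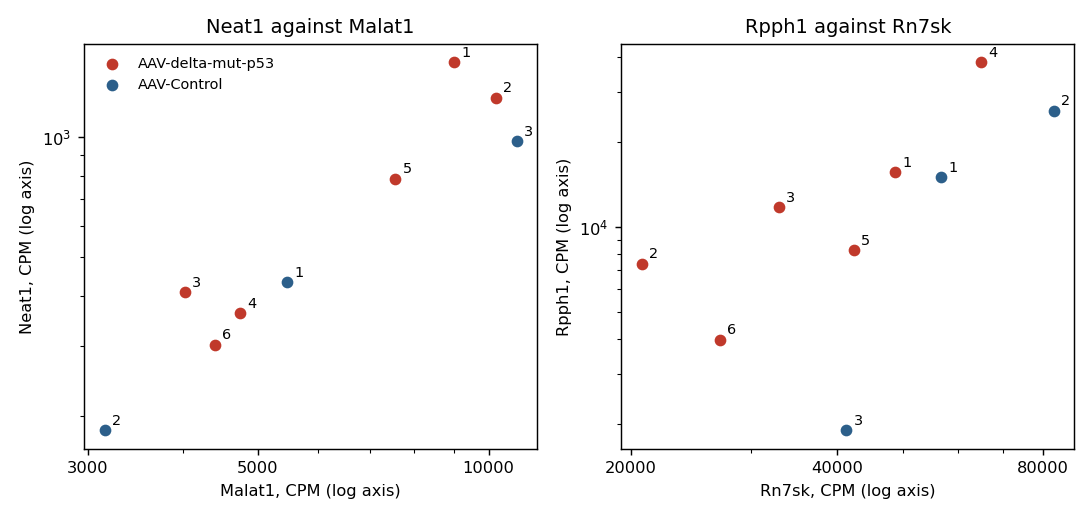
CPM of Neat1 against Malat1 (left) and of Rpph1 against Rn7sk (right), log axes, with 1 point per tumour and its number. The left points rise along 1 line through both groups (r = 0.948), while on the right AAV-Control 3 lies below the others, with a ratio of Rn7sk to Rpph1 counts of 21.8.

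Malat1 and Neat1 lie 22035 bases apart on the same strand of chromosome 19. Frmd8 and Ltbp3, genes on either side of them, did not follow the pair closely in these data. The r of Frmd8, 4223 bases upstream of Neat1, was 0.03 with Neat1. Ltbp3, beyond the 3′ end of Malat1, had r = -0.38 with Malat1. The genes of usual symbol most like Neat1 by r over the 9 tumours were Bckdhb (0.982), which encodes a subunit of branched-chain keto acid dehydrogenase, the splicing-factor kinase gene Clk1 (0.930) and Lrig2 (0.914). Those most like Malat1 were Bckdhb again (0.954), Zfp984 (0.937) and Trmt13 (0.926), an enzyme that methylates tRNA. The search covered 11605 genes, so high values of r are found for any RNA and are given as a description.

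The mitochondrial ribosomal RNAs moved with the pair of long RNAs. The r of mt-Rnr1 and mt-Rnr2 lay between 0.76 and 0.79 with Malat1 and between 0.80 and 0.82 with Neat1, while both had a negative r with Rn7sk, Rpph1 and Rmrp. Their summed level was 16599 to 42350 CPM with a median of 28944 in AAV-delta-mut-p53 tumours and 29993, 17724 and 39034 CPM in AAV-Control tumours. The highest sum was in AAV-delta-mut-p53 2, and AAV-Control 2, lowest in Malat1 and Neat1, was the lowest of the controls. The part of the mitochondrial share in the relation of Malat1 and Neat1 was not tested. Of 34 other long non-coding RNAs, 31 had a positive r with Malat1 (median 0.31), and of 22 other small structural RNAs 2 had one (median -0.22).

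The RNA polymerase III transcripts Rn7sk and Rpph1 showed a looser relation. Pearson's r was 0.628 (exact permutation p = 0.0685, adjusted p = 0.343) and Spearman's rho 0.817 (exact permutation p = 0.0108, adjusted p = 0.0538), and r was 0.658 without AAV-delta-mut-p53 2 and AAV-Control 2. Neither coefficient passed after adjustment over the 10 pairs. With the group means removed first, r was 0.806 (permutation adjusted p = 0.0476). That p is not exact, because values centred within groups are not freely exchangeable over the 9 tumours. With 1 tumour left out, the smallest exact permutation adjusted p was 0.0537. Rpph1 and Rmrp, the RNAs of related enzymes, had r = 0.428 (exact permutation adjusted p = 0.421), which was -0.43 without AAV-delta-mut-p53 4 and AAV-Control 3 and so rests on those tumours. The r of the polymerase III RNAs with the long RNAs was negative in all 6 pairs, from -0.53 for Rpph1 with Malat1 to -0.26 for Rmrp with Malat1, and none passed. For Rn7sk the r with Malat1 was 0.22 and that with Neat1 0.20 without AAV-delta-mut-p53 2 and AAV-Control 2, so these negative values rest on those tumours. With library sizes counted without the 5 RNAs, r was -0.52 for Rpph1 with Malat1 and -0.25 for Rmrp with Malat1. Scaling factors were computed anew in this setting and largely offset the change, so it cannot show how abundant RNAs affect each other's share. With library sizes alone and no scaling factors, r was -0.49 for Rpph1 with Malat1, -0.36 for Rn7sk with Malat1 and -0.19 for Rmrp with Malat1.

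Rpph1 shares its promoter region with Parp2, a gene of DNA repair that is read in the other direction. The bases between the 5′ end of Rpph1 and the first annotated base of Parp2, chr14:50807768-50807840, are shown in the direction of Rpph1, with the letters TTATA, the reverse complement of TATAA, in capitals, since a TATA box near the start is a mark of this class of polymerase III promoter.
Rpph1 upstream: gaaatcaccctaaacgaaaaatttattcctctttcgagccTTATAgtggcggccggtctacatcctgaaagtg

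TATAA was searched on both strands and lay 29 to 33 bases before the Rpph1 start. For Rmrp it lay 164 to 168 bases before the start, not near it. It occurs in 24.9% of the 32851 promoter windows. The octamer ATTTGCAT, known as a binding sequence of Oct-1 in upstream elements of such genes, lay 93 to 100 bases before Rpph1 and 216 to 223 bases before Rmrp, searched on both strands, and occurs in 1.74% of the windows. For Rmrp the 56 bases nearest to the gene were not searched. A match of letters is a description and does not show that a factor binds.

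Parp2 did not share the spread of Rpph1. It held 26.6, 27.4, 31.1, 29.2, 25.7 and 32.8 CPM in AAV-delta-mut-p53 tumours and 21.6, 27.4 and 21.7 CPM in AAV-Control tumours. Its highest and lowest tumours differed 1.52-fold, against 20.2-fold for Rpph1, and r between the neighbours was 0.22. Ccnb1ip1, which overlaps Rpph1 on the same strand, held 0, 4, 1, 10, 77 and 0 reads in AAV-delta-mut-p53 tumours and 0 in each AAV-Control tumour, so that at most 77 reads stand in that row against at least 47882 in the row of Rpph1. Ccdc107, antisense to Rmrp, ran from 7.62 to 38.1 CPM and had r = 0.65 with Rmrp. Arhgef39, which lies 3083 bases from Rmrp and does not overlap it, had r = 0.63 with Rmrp. Both genes were highest in AAV-delta-mut-p53 4, at 38.1 and 28.3 CPM, as Rmrp was. The cause of these likenesses was not tested. The library kit keeps strand, and no source used here gives the strand setting of the counting, so reads of Rmrp and Ccdc107 may not be fully separated.

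**Figure D5:**
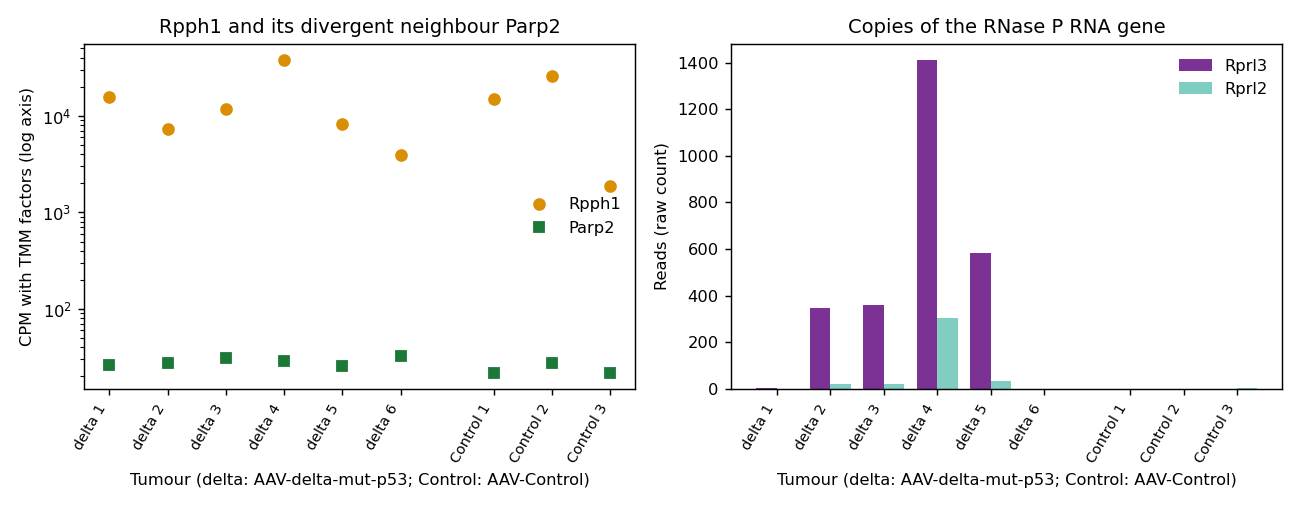
Left, CPM on a log axis of Rpph1 (circles) and Parp2 (squares) in each tumour. Right, raw reads of the RNase P RNA copies Rprl3 and Rprl2, which reach 1409 and 304 reads in AAV-delta-mut-p53 4 and stand at 0 to 2 reads in AAV-delta-mut-p53 1 and 6 and in the 3 AAV-Control tumours.

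Close copies of these RNAs elsewhere in the genome can take or lose reads. The table held 34 rows whose RNA matched Rn7sk at 80% identity or more over at least 50% of its length, of which 9 had no read. Together they held 276 to 1167 reads per tumour, at most 0.170% of the Rn7sk count. The largest was Gm24447, identical to Rn7sk over 241 bases, with 180 to 702 reads in AAV-delta-mut-p53 tumours and 327, 826 and 171 reads in AAV-Control tumours. Copies of Rpph1 had 4 rows, and both rows named Rprl1 had no read.

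Rprl3, annotated as an RNase P RNA-like gene and 86.0% identical to Rpph1 over the matched bases, was read in some tumours only. It had 2, 346, 361, 1409, 581 and 0 reads in AAV-delta-mut-p53 tumours 1 to 6 and 0, 1 and 0 reads in AAV-Control tumours. Rprl2 had 1, 23, 20, 304, 33 and 0 reads in AAV-delta-mut-p53 tumours and 0, 0 and 2 reads in AAV-Control tumours. AAV-delta-mut-p53 2 to 5 thus held nearly all reads of both copies, and Ccnb1ip1 had reads in these same 4 tumours. The smallest levels that could be seen, taken as 3 reads, were 0.122 to 0.167 CPM in AAV-delta-mut-p53 tumours and 0.10 to 0.119 CPM in AAV-Control tumours. Both rows passed the filter on low counts through AAV-delta-mut-p53 tumours alone, so no p is read from them. Both copies peaked in AAV-delta-mut-p53 4, the tumour highest in Rpph1 at 38221 CPM, while AAV-Control 1 and 2 had 14952 and 25748 CPM of Rpph1 with at most 1 read of Rprl3. Whether reads of Rpph1 fell into these rows was not tested.

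Proteins and RNAs that work with the 5 RNAs were compared by group as lists. Over all 19606 tested genes, 10902 had a higher and 8704 a lower estimate for AAV-delta-mut-p53 tumours, with a median log2 fold change of 0.09. Of 9 genes of the 7SK complex and P-TEFb, 4 had higher estimates and 5 lower ones (median log2 fold change -0.20), and 0 had an unadjusted p under 0.05. Those with the smallest p were Larp7, which binds and protects the 3′ end of 7SK RNA (log2 fold change -0.54, SE 0.36), and Hexim1, the P-TEFb inhibitor (-0.47, SE 0.34). Of 10 RNase P and MRP protein subunits, 3 were higher and 7 lower (median -0.10), with 0 under 0.05. Rpp30 held 21.7 ± 5.83 CPM (SD, n = 6) in tumours given AAV-delta-mut-p53 and 35.0 ± 14.5 CPM (SD, n = 3) in AAV-Control tumours, and Pop4 held 35.5 ± 15.7 CPM with AAV-delta-mut-p53 and 54.2 ± 9.21 CPM with AAV-Control. None of these genes passed edgeR's test.

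The genes most like Rmrp over the 9 tumours were Rpl10a, a ribosomal protein gene (r = 0.939), Rpp25l, an RNase P and MRP subunit-like gene (0.938), and Nol6, a nucleolar gene (0.910). Rpp25l held 8.77, 5.82, 4.59, 20.8, 11.1 and 12.6 CPM in AAV-delta-mut-p53 tumours and 10.7, 12.1 and 4.67 CPM in AAV-Control tumours, highest in AAV-delta-mut-p53 4 as Rmrp was. The genes most like Rn7sk were Ppp1r8 (0.968), a nuclear inhibitor of protein phosphatase 1, Sun1 (0.960), of the nuclear envelope, and Mbnl3 (0.949), a splicing regulator. Those most like Rpph1 were Zdhhc1 (0.954), Kmt2b (0.921), a histone methyltransferase, and Atp23 (0.919). These were picked from 11605 genes and carry no test.

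Of 33 genes of the RNA polymerase III machinery, 10 were higher and 23 lower (median log2 fold change -0.14). An unadjusted p under 0.05 was found for 1 of the 33, on the lower side, where 3.26% of all tested genes had one, so the list did not exceed the background. This gene was Polr1d, a subunit of polymerases I and III, at 35.1 ± 7.67 CPM (SD, n = 6) in tumours given AAV-delta-mut-p53 and 53 ± 7.21 CPM (SD, n = 3) in AAV-Control tumours (log2 fold change -0.60, SE 0.27, FDR = 0.677 by edgeR). Snapc2, a subunit of the complex that binds promoters of Rn7sk type, held 8.36 to 79.7 CPM in AAV-delta-mut-p53 tumours and 19.7, 9.97 and 8.28 CPM in AAV-Control tumours (log2 fold change 1.5, SE 0.69, unadjusted p = 0.0537 by edgeR). The 2 values stand in opposite directions, and neither gene passed after adjustment.

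Most paraspeckle protein genes had lower estimates in AAV-delta-mut-p53 tumours, and 0 of 19 passed edgeR's FDR threshold. There were 16 lower and 3 higher estimates among the 19, and their median on the log2 scale was -0.43. The summed level was 2396 to 3886 CPM in AAV-delta-mut-p53 tumours and 3961, 4433 and 7372 CPM in AAV-Control tumours, and AAV-Control 3 was far the highest. The sums did not overlap, but AAV-delta-mut-p53 5 and AAV-Control 1 lay close, at 3886 and 3961 CPM. An unadjusted p under 0.05 was found for 5 of the 19, all lower, where 3.26% of all tested genes had one on the lower side. Hnrnpr held 202, 165, 149, 183, 187 and 117 CPM in AAV-delta-mut-p53 tumours and 244, 308 and 412 CPM in AAV-Control tumours (log2 fold change -0.94, SE 0.27, unadjusted p = 0.0055 and FDR = 0.677 by edgeR). Rbmx, at 50.9 to 102 CPM in AAV-delta-mut-p53 tumours and 128, 154 and 146 CPM in AAV-Control tumours, also showed no overlap of the groups. Hnrnpr and Rbmx were named for the smallest p of the list, and the groups did not overlap for 3.06% of all tested genes. The other 3, named after their values were seen because p was under 0.05, were Cpsf6, Nono and Srsf10.

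Nono, a core paraspeckle protein, held 576, 268, 470, 597, 385 and 469 CPM in AAV-delta-mut-p53 tumours and 554, 1021 and 1073 CPM in AAV-Control tumours. AAV-Control 1 lay within the range of AAV-delta-mut-p53 tumours. For Cpsf6 AAV-Control 3 stood out, since 143 to 332 CPM were found in AAV-delta-mut-p53 tumours, against 306, 246 and 2080 CPM in AAV-Control tumours. Its lower estimate, and so its place among the genes with a low p, rests on AAV-Control 3. Cpsf6 is also part of the high summed level of that tumour. Mdm2 was highest in AAV-Control 3 as well, at 561 CPM, and a link between these values was not tested. Sfpq, the partner of NONO, held 261 ± 52.8 CPM (SD, n = 6) in tumours given AAV-delta-mut-p53 and 353 ± 57.1 CPM (SD, n = 3) in AAV-Control tumours (unadjusted p = 0.131 by edgeR). Endothelial markers also had lower estimates, 6 of 7, all 7 were detected, and they had sums of 132 to 359 CPM in AAV-delta-mut-p53 and 545, 380 and 253 CPM in AAV-Control tumours. Their part in the values of the paraspeckle genes was not tested.

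Of 18 nuclear speckle protein genes, 6 were higher and 12 lower (median log2 fold change -0.23). There were 2 of 18 with an unadjusted p under 0.05, both lower, where 3.26% of all tested genes had one on the lower side. They were Thoc2, of the mRNA export complex THO, at 190 ± 50.5 CPM (SD, n = 6) in tumours given AAV-delta-mut-p53 and 322 ± 90.4 CPM (SD, n = 3) in AAV-Control tumours, and U2af1, a splice site factor, at 60.5 ± 20.3 CPM with AAV-delta-mut-p53 and 127 ± 105 CPM with AAV-Control. For U2af1, AAV-Control 3 held 249 CPM and the other controls 60.6 and 72.2 CPM. Neither passed edgeR's test (FDR = 0.677 for both).

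Most other small structural RNAs had higher estimates in AAV-delta-mut-p53 tumours, and 0 passed the FDR threshold of edgeR. The list had 35 rows in the count data, of which 22 passed the filter on low counts and 10 had no read in any tumour. Of the 22, 18 had higher and 4 lower estimates, and the median log2 fold change was 1.07. An unadjusted p under 0.05 was found for 6, all higher, where 3.82% of all tested genes had one on the higher side. Rows that are nearly empty in 1 group can pass the filter only through the other, as Rprl3 and Rprl2 did. These are 2 of the 6 and stand among the 18 higher estimates, and no p is read from them. Both counts and the median of 1.07 thus describe the tested rows alone and are not read against all genes. No excess over the 3.82% is drawn from the 6. The rest of the 6 were Vaultrc5, Snord17, Scarna6 and Rnu1b1, which averaged only 0.49 CPM in AAV-Control tumours. Vaultrc5, a vault RNA made by polymerase III, held 23.2, 60.4, 12.2, 68.6, 15.8 and 85.2 CPM in AAV-delta-mut-p53 tumours and 10, 15.8 and 2.97 CPM in AAV-Control tumours (log2 fold change 2.20, SE 0.77, unadjusted p = 0.0166 by edgeR). Snord17, a small nucleolar RNA, held 170 to 607 CPM in AAV-delta-mut-p53 tumours and 115, 221 and 64.5 CPM in AAV-Control tumours. Leukocyte markers also had mostly higher estimates, 13 of 15 tested, and all 18 of the list were detected. Their sums were 407 to 1428 CPM with AAV-delta-mut-p53, against 319, 648 and 595 CPM with AAV-Control, and the 15 muscle markers, all with higher estimates, summed as given above. The part of these cells in the values of the small RNAs was not tested.

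Their levels were also set against those of the 3 polymerase III RNAs. Of the 22 tested rows, 21 had a positive r with Rmrp over the 9 tumours (median 0.59), 19 with Rpph1 (median 0.34) and 15 with Rn7sk (median 0.11). Over all 12315 genes averaging 5 CPM or more the median r was 0.02 with Rmrp, 0.02 with Rpph1 and 0.09 with Rn7sk, so the median with Rn7sk was near that of all genes. The 22 rows passed the filter on low counts alone, and some, such as Rnu1b1, average less than 5 CPM, so the sets are not filtered alike. This is a description over rows that share libraries, and the difference between these medians was not tested. The share of all genes with a positive r is not given, so the counts of positive r have no background. Tumours 4 and 6 given AAV-delta-mut-p53 held the highest sums of this list, 1226 and 1333 CPM. The next highest sum was 697 CPM. Rmrp also peaked in tumours 4 and 6, with 188 and 116 CPM. Whether the likeness to Rmrp rests on that pair of tumours was not tested. Rny1, a Y RNA that binds the Ro protein, reached 579 CPM in AAV-delta-mut-p53 6, where the rest of its group had 7.67 to 90.9 CPM and AAV-Control tumours had 44.1, 22.5 and 28.7 CPM. Rny3 was highest in the same tumour, at 216 CPM, where Rmrp was second highest.

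Of 34 other long non-coding RNAs, 15 were higher and 19 lower (median log2 fold change -0.09), and 0 had an unadjusted p under 0.05. Gm26917 was the most abundant, at 5412 ± 1170 CPM (SD, n = 6) in tumours given AAV-delta-mut-p53 and 4533 ± 1864 CPM (SD, n = 3) in AAV-Control tumours. Xist, which coats the inactive X chromosome, ran from 48.7 to 1644 CPM in AAV-delta-mut-p53 tumours and held 810, 855 and 930 CPM in AAV-Control tumours. Kcnq1ot1, an imprinted antisense RNA, ran from 116 to 1323 CPM with AAV-delta-mut-p53 and held 538, 920 and 808 CPM with AAV-Control. The smallest p belonged to Lncpint (log2 fold change 1.73, SE 0.85) and Snhg1 (-0.85, SE 0.50). Of 30 p53 target genes, 15 were higher and 15 lower, and Mdm2 (-1.61, SE 0.51) and Plk2 (-1.08, SE 0.49) had the smallest p, and 0 of the 30 passed edgeR's FDR threshold. Mdm2 held 68.4 to 114 CPM in AAV-delta-mut-p53 tumours and 90.9, 103 and 561 CPM in AAV-Control tumours, so its high mean in AAV-Control tumours rests on AAV-Control 3.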

How the data were processed

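Raw counts of reads per gene, a column for each tumour, are what the authors deposited, from strand-specific total RNA libraries, per the labels' protocols. STAR 2.6.0b, DESeq2 and GRCm38 are named, without a role, per the submitters' processing notes. The counting program, its strand setting and the annotation release were not given in the sources used here. Symbols were found for 49326 of 49585 identifiers in GENCODE mouse release 21, and 43749 matched with their version. No 2 libraries were duplicates, as the lowest chi-square per degree of freedom over 36 pairs was 117.

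Counts were scaled by TMM factors and tested with edgeR 4.0.16 (R 4.3.3, limma 3.58.1) by the 2-sided quasi-likelihood test on 19606 genes kept by filterByExpr (minimum count 10), with Benjamini-Hochberg adjustment over all of them. DESeq2 1.42.0 was an alternative. A positive log2 fold change means higher in AAV-delta-mut-p53 tumours. Correlations used log2(CPM + 1) and exact permutation over all pairings. Copies were found with blastn 2.17.0. RNA sequences came from GENCODE transcripts and promoter windows from RefSeq (GRCm38), where 1 of the 5 RNAs had an entry of its own, and the Rpph1 and Rmrp upstream bases came from the windows of Parp2 and Ccdc107. Intervals cover 95%. The fits and the correlation test were tested on simulated data.

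The 5 RNAs and the lists were chosen with earlier results of these data known. Named were the 5 RNAs, the 3 genes of at least 5 CPM most like each by Pearson's r, the 2 genes of each list with the smallest p, the 3 most abundant of each non-coding list, and Trp53. Ccnb1ip1, Ccdc107, Parp2, Frmd8, Ltbp3 and Gm27702 were added as neighbours. Added after their values were seen were the neighbour Arhgef39, Rnu1b1, Scarna6, Sfpq, Cpsf6, Nono, Srsf10 and Rpp25l's levels. Of the marker lists, sums and counts by direction are given.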

Additional observations from a re-analysis of the deposited data

Results flagged for a closer look

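Values of the 5 RNAs, of ratios between them, of Trp53 and of the named genes of the lists other than cell markers were examined. A tumour far from the other 5 of the AAV-delta-mut-p53 group was sought by Dixon's test at its 95% critical value, in 34 values. Chance flags about 1 in 20 groups if the values are normally distributed. The test was run on CPM and ratios without logs, where a skewed spread can give more flags, and was not run on the log2 scale. The 3 AAV-Control tumours are too few for this test. Rpph1 in AAV-delta-mut-p53 4 was 38221 CPM, far above the others of its group. The RNase P subunit gene Pop4, at 66.5 CPM, and the RNase P RNA copy Rprl3, at 78.6 CPM, were set apart in the same tumour. The Y RNAs Rny1, at 579 CPM, and Rny3, at 216 CPM, were set apart in AAV-delta-mut-p53 6.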

How the results depend on the processing

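No paired analysis was possible because the replicate numbers follow accession order and the labels pair no tumour of one group with a tumour of the other. None of the 5 RNAs passed FDR 0.05 under any of the alternatives run (other scaling, DESeq2, voom weights, a robust fit, other filters, the tumours with a shared title number summed, each tumour left out). The log2 fold change of Rpph1, -0.00 as reported, was positive with upper-quartile factors (0.027), with library sizes counted without the 5 RNAs (0.0061), with voom (0.18) and with a filter of 1 CPM in 6 tumours (0.013). With 1 tumour left out, it ran from -0.60 to 0.75 for Rpph1, from -0.28 to 0.62 for Malat1, from 0.15 to 1.32 for Neat1, from 0.27 to 0.78 for Rmrp and from -0.83 to -0.31 for Rn7sk, so the sign of Rpph1 and Malat1 depends on single tumours. DESeq2 called 105 genes where edgeR called 0, with 1387 genes at an unadjusted p under 0.05 in edgeR and 874 to 2009 with 1 tumour left out. The median log2 fold change of all genes was -0.02 with voom and 0.20 with no filter. The r of Malat1 and Neat1 was 0.924 to 0.965 with 1 tumour left out, and its adjusted p was 0.0605 without AAV-Control 2, with fewer tumours to permute. The r of Rn7sk and Rpph1 was 0.806 with group means removed, with a permutation adjusted p of 0.0476 that is not exact for centred values. The cause of these changes was not tested. Depth does not limit Rn7sk, Rpph1, Malat1 or Neat1, with at least 5534 reads per tumour, while Rmrp had at least 686.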
